A study of Homo sapiens with 6 samples.

Results

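The genes described here encode the constitutive proteasome, its activators, its inhibitor and its assembly chaperones. They were taken from a table of read counts by symbol: every row whose name starts with PSM, a letter from A to G and a number, without the interferon-induced subunits PSMB8, PSMB9 and PSMB10. Of 15598 genes in the table, 43 rows matched. PSMC3IP matched by its prefix alone, since it encodes a recombination factor named for binding PSMC3, and was kept out of every count. The remaining 42 genes fell into the 20S core (14 genes, 7 of the alpha ring and 7 of the beta ring), the thymus beta subunit PSMB11, the 19S particle (17 genes, 6 ATPases and 11 non-ATPases), 3 chaperones of 19S assembly, the PSME activators (2 genes), the inhibitor PSMF1 and the PSMG chaperones (4 genes). PSME1, PSME2 and PSMA8 were not analysed here.

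RNA sequencing was done on MHCC97H, a line of highly metastatic human hepatocellular carcinoma cells, in 2 groups of 3 libraries. One group, shHNRNPC, carried a short hairpin RNA directed at HNRNPC, and the other, shcontrol, carried a control hairpin. All libraries came from 1 cell line, and the labels name 1 knockdown construct. HNRNPC encodes an abundant nuclear RNA-binding protein, known for its affinity to runs of uridine and for its part in splicing. The series' design text speaks of independent replicates without saying how they were grown, so p-values measure the spread between these libraries, which may in part be technical.

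The 26S proteasome degrades proteins that carry ubiquitin chains. Its 20S core is a barrel of stacked alpha and beta rings: the alpha rings form the gate, and the beta rings hold the proteolytic sites inside. The 19S particle caps the barrel, binds ubiquitin through receptor subunits, removes the chain and unfolds the substrate with a ring of ATPases. PSME proteins can cap the core in place of 19S. When proteasome activity falls, the transcription factor NFE2L1 is processed to its active form and is known to raise the subunit genes together through antioxidant response elements in their promoters.

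Total counts ran from 15563077 to 18328475 per library. Values by library are given in the order NC_3, NC_3_2 and NC_3_3 for shcontrol and SI_3, SI_3_2 and SI_3_3 for shHNRNPC, the names of the deposited columns, and means as ± SD with n = 3 libraries per group. HNRNPC, the targeted gene, gave 857, 868 and 868 CPM (read counts scaled to the library total) in the shcontrol libraries and 60.5, 65.4 and 58.2 CPM in the shHNRNPC libraries, a 13.7-fold lower level (log2 fold change -3.77, SE 0.030, edgeR adjusted p = 5.04e-55). Of the markers used to check the cells, the epithelial keratins KRT8 and KRT18 were abundant, with 1020.0 ± 7.78 CPM in shcontrol and 1142 ± 6.38 CPM in shHNRNPC for KRT8, while EPCAM, AFP, ALB and APOA1 were at 0 to 0.419 CPM in every library and SERPINA1 stayed below 1 CPM. The label of a liver tumour cell was therefore not matched by the liver genes AFP, ALB and APOA1. Among markers of other cell types, CD3E, PECAM1 and COL1A2 were at or near 0 and COL1A1 was at 15.8 ± 0.663 CPM in shcontrol and 15.6 ± 0.811 CPM in shHNRNPC. CD68 was at 43.8 ± 3.73 CPM in shcontrol and 63.9 ± 2.22 CPM in shHNRNPC, and ACTA2 at 423 ± 4.63 CPM in shcontrol and 332 ± 1.90 CPM in shHNRNPC. Of the 8 markers of other cell types 7 had a row and 3 could be tested, of which CD68 was called higher and ACTA2 lower, and their part in the results was not tested. In bulk RNA, a lower level in every cell and a loss in some cells cannot be told apart.

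After the removal of low counts 39 of the 42 genes could be tested, and PSMB3, PSMB11 and PSMC4 had too few reads. At an edgeR quasi-likelihood adjusted p under 0.05, over all genes tested, 21 were higher in shHNRNPC, 5 were lower and 13 were not called. Over all 11831 genes tested, 61.1% were called, 29.8% as higher and 31.3% as lower. The share of proteasome genes called, 66.7%, was close to that of all genes. Of the called proteasome genes 80.8% were higher, against 48.7% of all called genes. The changes were small: 22 of the 26 called genes differed by less than 1.25-fold, against 47.0% of all called genes. Tested against a change of 1.2-fold in place of no change (glmTreat in edgeR), 2 proteasome genes were higher, PSMA5 and PSMB1, and 3 lower, PSMD12, PSME4 and PSMG2, where 25% of all genes tested were called (9.29% higher, 15.7% lower). The median log2 fold change was 0.076 over the 39 genes and -0.0041 over all genes tested.

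**Figure D1:**
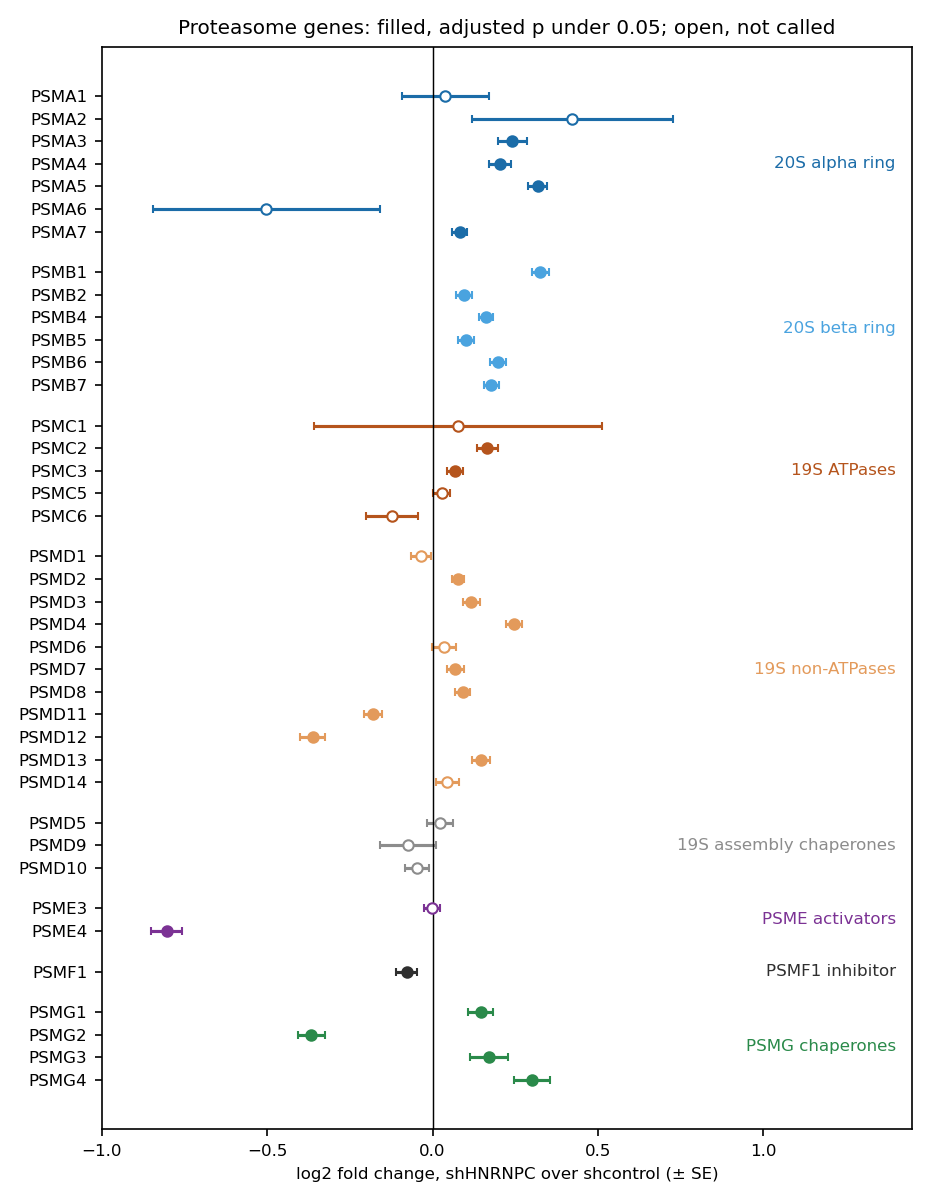
Log2 fold change of shHNRNPC over shcontrol for the 39 tested proteasome genes, grouped by class; bars show ± SE from the edgeR fit, filled points passed an adjusted p of 0.05 and open points did not. Called 20S genes all lie to the right of 0, PSME4 lies farthest to the left at -0.80, and PSMA2, PSMA6 and PSMC1 have the widest bars.

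The CPM values of the 3 shHNRNPC libraries did not overlap those of the 3 shcontrol libraries for 22 of the genes, 16 of them higher and 6 lower in shHNRNPC. Among all genes tested this held for 63.3%, with 26.5% higher and 36.9% lower. CPM was scaled to total counts, whereas fold changes were taken after TMM scaling, which moved every log2 fold change up by about 0.040. A gene with a very small change can therefore have a CPM ratio and a fold change of opposite sign. The scaling mattered for PSMD1, which encodes the scaffold at the base of the 19S particle. PSMD1 gave 185, 182 and 179.5 CPM in the shcontrol libraries and 176, 172 and 169.9 CPM in the shHNRNPC libraries, with no overlap, and the fit after TMM scaling did not call it (log2 fold change -0.035, SE 0.030, edgeR adjusted p = 0.32). By library size alone it was called lower (edgeR adjusted p = 0.028).

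Both directions of change occurred among genes whose promoters hold the core of an antioxidant response element. The motif searched was TGACNNNGC on both strands, in RefSeq promoters of 300 bases (GRCh38.p14, 250 before and 50 after the start site). Of 36 proteasome genes with a promoter entry, 12 held it (33.3%), against 18.8% of the 12017 genes of the table with an entry and 16.1% of all 27305. By class it was found for 2 of 10 genes of the 20S core, 5 of 16 of the 19S particle and 2 of 3 PSMG chaperones. It was also found for 2 of 3 chaperones of 19S assembly and 1 of 2 PSME activators, and not for PSMB11 or PSMF1. Of the genes called higher 3 of 15 held it (PSMA4, PSMD3 and PSMG1), and of those called lower 3 of 5 (PSMD12, PSME4 and PSMG2). Of those not called 4 of 13 held it (PSMC5, PSMD1, PSMD5 and PSMD9), and of those not tested 2 of 3 (PSMB3 and PSMC4). After the GC and length correction described below, PSMA4 was still called higher and PSME4 and PSMG2 lower. PSMD3, PSMG1 and PSMD12 were then not called, and PSMC5 was called lower and PSMD5 higher. A match is a description of letters and no evidence of binding, and genes with several start sites have more bases searched. The stretches around the motif are shown for the 6 called genes, since their calls went both ways. Each is written 5′ to 3′ on the gene's strand, with the motif in capitals, as TGACNNNGC or, where it lies on the other strand, as its reverse complement.
PSMA4: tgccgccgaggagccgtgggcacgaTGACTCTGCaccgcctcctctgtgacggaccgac
PSMD3: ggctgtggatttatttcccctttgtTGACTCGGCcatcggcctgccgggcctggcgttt
PSMG1: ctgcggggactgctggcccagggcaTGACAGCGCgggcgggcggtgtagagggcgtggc
PSMD12: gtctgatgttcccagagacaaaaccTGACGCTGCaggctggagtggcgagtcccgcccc
PSME4: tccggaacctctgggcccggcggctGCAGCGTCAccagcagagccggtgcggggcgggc
PSMG2: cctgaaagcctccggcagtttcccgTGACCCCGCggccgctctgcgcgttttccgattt
In the same order these lie at chr15:78540635-78540693 (plus strand), chr17:39980745-39980803 (plus), chr21:39183601-39183659 (minus), chr17:67366709-67366767 (minus), chr2:53970994-53971052 (minus) and chr18:12658674-12658732 (plus). The first base of the motif lay 126, 37, 183, 165, 34 and 39 bases before the start site. PSMD3 held another match 33 bases after its start site, which is not shown.

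Genes of the 20S core were mostly higher in shHNRNPC. Of 13 tested, 10 were called higher, 0 lower and 3 not called by edgeR, with a median log2 fold change of 0.18. The count of lower genes was also 0 at an unadjusted p under 0.05 and by DESeq2. Over all genes tested 29.8% were called higher and 31.3% lower. After the correction for transcript GC content and length described below, 5 core genes were called higher and 1 lower. Summed over its 14 genes, the core took 3630, 3590 and 3624 CPM in the shcontrol libraries and 3937, 4005 and 3876 CPM in the shHNRNPC libraries, with no overlap. The means were 3615 ± 21.3 and 3939 ± 64.6 CPM (SD, n = 3), a ratio of 1.09. No test was made on the sums, whose genes were chosen with results known.

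**Figure D2:**
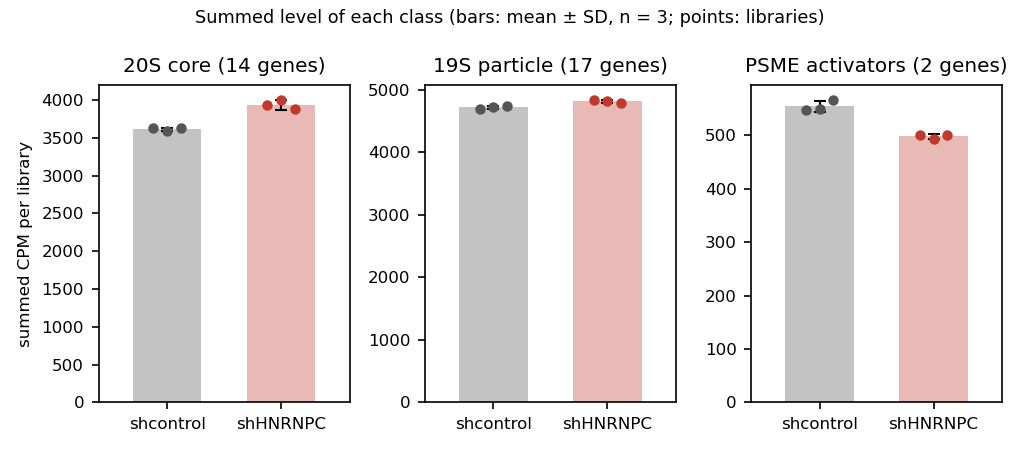
Summed CPM of the 20S core, the 19S particle and the PSME activators in each library (points), with bars at the group mean and error bars of ± 1 SD over 3 libraries; all axes start at 0. The means in shcontrol and shHNRNPC are 3615 and 3939 CPM for the core, 4719 and 4813 CPM for 19S, and 554 and 499 CPM for PSME.

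In the beta ring, which carries the proteolytic sites, all 6 tested genes were called higher, with log2 fold changes from 0.10 (PSMB2) to 0.33 (PSMB1). Over all genes tested 29.8% were called higher. After the GC and length correction described below, 2 beta genes were called higher and 4 were not called. PSMB1 gave 249.8, 244 and 247 CPM in the shcontrol libraries and 308, 303 and 293 CPM in the shHNRNPC libraries. It rose 1.25-fold (log2 fold change 0.33, SE 0.027, edgeR adjusted p = 1.10e-14), the largest fold of any proteasome gene called higher in this fit. PSMB1 lies at chr6:170535117-170553341 in the positions of the deposited table, whose genome build the sources used here do not name. The 3 catalytic subunits had smaller fold changes. For the caspase-like subunit PSMB6 the levels were 305, 311 and 306 CPM in shcontrol and 336, 348 and 343 CPM in shHNRNPC, 1.15-fold higher (log2 fold change 0.20, SE 0.025, edgeR adjusted p = 2.27e-09). The trypsin-like subunit PSMB7 was at 538, 531 and 536 CPM in shcontrol and 592, 609.6 and 565 CPM in shHNRNPC, 1.13-fold higher (log2 fold change 0.18, SE 0.024, edgeR adjusted p = 8.91e-09). The chymotrypsin-like subunit PSMB5, the main target of proteasome inhibitor drugs, was at 336, 341 and 337 CPM in shcontrol and 344, 357 and 356 CPM in shHNRNPC, 1.07-fold higher (log2 fold change 0.10, SE 0.024, edgeR adjusted p = 3.80e-04). In each of these catalytic genes the lowest shHNRNPC library lay above the highest shcontrol library, but they were not called after the GC and length correction. PSMB4, a structural subunit, rose by 0.16 on the log2 scale (edgeR adjusted p = 9.87e-09).

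In the alpha ring, which forms the gate, 4 of 7 tested genes were called higher and 3 not called. The share called, 57.1%, was below the 61.1% of all genes tested, of which 29.8% were called higher and 31.3% lower. After the GC and length correction described below, 3 alpha genes were called higher and 1 lower. PSMA5 gave 241, 243 and 264 CPM in the shcontrol libraries and 309, 299 and 301 CPM in the shHNRNPC libraries. It rose 1.25-fold (log2 fold change 0.32, SE 0.028, edgeR adjusted p = 2.00e-13) with no overlap between the groups. PSMA3 was at 74.3, 68.0 and 72.6 CPM in shcontrol and 86.9, 82.5 and 78.1 CPM in shHNRNPC, 1.18-fold higher (log2 fold change 0.24, SE 0.045, edgeR adjusted p = 8.85e-06). PSMA4 was at 120.0, 117 and 116 CPM in shcontrol and 129, 133 and 133 CPM in shHNRNPC, 1.15-fold higher (log2 fold change 0.20, SE 0.034, edgeR adjusted p = 1.43e-06). PSMA3 and PSMA4 also had no shHNRNPC library within the shcontrol range. PSMA7, the most abundant core gene, rose by 0.082 on the log2 scale (edgeR adjusted p = 0.0013), and its groups overlapped in CPM. By library size alone PSMA7 was not called (edgeR adjusted p = 0.0923). The genes not called, PSMA1, PSMA2 and PSMA6, were those with few counts.

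**Figure D3:**
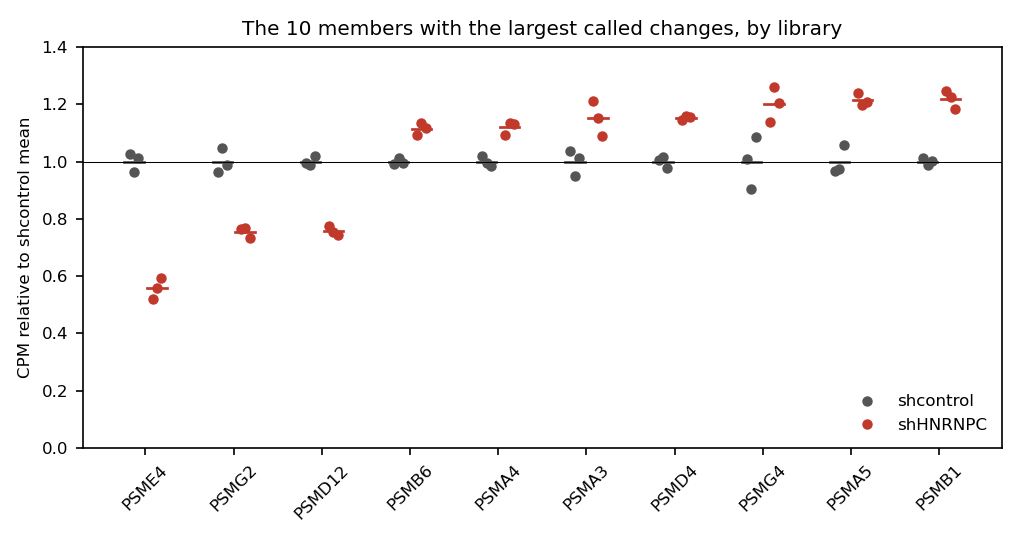
CPM of each library relative to the shcontrol mean for the 10 proteasome genes with the largest called changes; points are libraries, short lines are group means, and the axis starts at 0. The shHNRNPC group mean is 0.56 of the shcontrol mean for PSME4, 0.75 for PSMG2 and 0.76 for PSMD12, and the group means of the other 7 genes lie between 1.1 and 1.22, with single libraries spread around them.

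Genes of the 19S particle were called in both directions, and their median change was nearer to 0 than that of the core. Whether the classes differ was not tested. Of 16 tested genes, 8 were called higher, 2 lower and 6 not called, with a median log2 fold change of 0.068. The share called, 62.5%, was close to the 61.1% of all genes tested (29.8% higher, 31.3% lower). After the GC and length correction described below, 2 of the 19S genes were called higher and 2 lower. The 17 genes of the particle, taken by symbol, summed to 4698, 4716 and 4743 CPM in the shcontrol libraries and 4831, 4826 and 4782 CPM in the shHNRNPC libraries. The means were 4719 ± 22.8 and 4813 ± 27.3 CPM, a ratio of 1.02. ADRM1 and SEM1, which stand in the list of other subunits and partners below, were not in this sum. The sum of the core over that of the 19S particle was 0.773, 0.761 and 0.764 in shcontrol and 0.815, 0.830 and 0.811 in shHNRNPC. Core genes thus took a larger part of the reads of these classes in each shHNRNPC library. The sums are of reads not divided by transcript length, and the ratio was not taken after the GC and length correction described below. By library size alone, a scaling that called 60.4% of all genes tested (25.2% higher, 35.2% lower), 5 of the 19S genes were called higher and 3 lower, which changed the share of higher calls from 80.0% to 62.5%. The core then had 9 higher and 0 lower, and all proteasome genes 17 higher and 7 lower.

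Among the non-ATPases, PSMD4, a ubiquitin receptor, changed most upward. It gave 357, 361 and 347 CPM in the shcontrol libraries and 406, 412 and 409.9 CPM in the shHNRNPC libraries, 1.19-fold higher (log2 fold change 0.25, SE 0.024, edgeR adjusted p = 1.89e-12). PSMD12, a scaffold subunit of the 19S lid, changed most downward. It was at 109.5, 109 and 112 CPM in shcontrol and 85.2, 82.8 and 81.9 CPM in shHNRNPC, 1.29-fold lower (log2 fold change -0.36, SE 0.038, edgeR adjusted p = 2.18e-11), at chr17:67339803-67366605 in the deposited positions. PSMD11, another lid scaffold, was the other gene that fell, by 0.18 on the log2 scale (edgeR adjusted p = 3.74e-07). The groups of PSMD4, PSMD11 and PSMD12 did not overlap. The lid deubiquitinase PSMD14 was not called, with 136 ± 6.26 CPM in shcontrol and 137 ± 3.61 CPM in shHNRNPC (log2 fold change 0.044, edgeR adjusted p = 0.281). PSMD1 and PSMD6 were not called either. PSMD2, PSMD3, PSMD7, PSMD8 and PSMD13 were called higher with log2 fold changes from 0.069 to 0.15, and were not called after the GC and length correction described below. PSMD12 was then at -0.011 on the log2 scale and not called, while PSMD4 stayed higher and PSMD11 lower.

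Of the 5 tested ATPases, which form the unfolding ring, PSMC2 and PSMC3 were called higher, at 0.17 and 0.067 on the log2 scale, and PSMC1, PSMC5 and PSMC6 were not called. That is 40% called, against 61.1% of all genes tested. After the GC and length correction described below, PSMC2 stayed higher, PSMC3 was not called and PSMC5 was lower. The calls of PSMC3 and PSMD7 were weak. Without the shcontrol library NC_3 their edgeR adjusted p-values were 0.172 and 0.185. For PSMD7 the value was 0.135 without SI_3 and 0.0923 without SI_3_2, and in the authors' deposited table its adjusted p was 0.0508. PSMC6, not called with all libraries, had an edgeR adjusted p of 0.0431 without NC_3, at -0.20 on the log2 scale. The 19S assembly chaperones PSMD5, PSMD9 and PSMD10, which guide ATPase pairs into the ring, were all tested, and 0 were called by edgeR, at an unadjusted p under 0.05 or by DESeq2, with log2 fold changes from -0.074 to 0.022. By library size alone PSMD10 was called lower (edgeR adjusted p = 0.0397).

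Of the 2 PSME activators with a row, PSME4 was called lower and PSME3 was not called, and the difference between them was not tested. PSME4, which encodes a large nuclear cap of the core linked to histone degradation, gave 99.1, 93.0 and 97.9 CPM in the shcontrol libraries and 50.3, 53.9 and 57.3 CPM in the shHNRNPC libraries. The highest shHNRNPC library was far below the lowest shcontrol library. The shHNRNPC mean was 55.7% of the shcontrol mean, and the fit gave a 1.75-fold lower level (log2 fold change -0.80, SE 0.046, edgeR adjusted p = 4.44e-20). In this fit it was the largest called change of any proteasome gene, and among the 11831 genes tested 465 had a lower log2 fold change. After the GC and length correction described below, PSME4 was at -0.46 on the log2 scale. The called changes of PSMA5 (0.64) and PSMG2 (-0.48) were then larger. PSME4 lies at chr2:53864067-53970840 on the minus strand in the deposited positions. PSME3, a nuclear activator linked to degradation without ubiquitin, was at 449, 456 and 469 CPM in shcontrol and 451, 439 and 444 CPM in shHNRNPC and was not called (log2 fold change -0.0021, SE 0.023, edgeR adjusted p = 0.943). Per kilobase of the longest coding transcript, the PSME3 level in CPM was 136 ± 3.03 in shcontrol and 132 ± 1.69 in shHNRNPC, and that of PSME4 was 13.6 ± 0.450 in shcontrol and 7.58 ± 0.495 in shHNRNPC. Their sum was 548, 549 and 567 CPM in shcontrol and 501, 493 and 501 CPM in shHNRNPC, a ratio of 0.899. No test was made of a difference between the activators and the core.

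PSMF1, an inhibitor of the core that also takes part in its transport, was called lower by a narrow margin. It was at 164, 160.3 and 156 CPM in the shcontrol libraries and 146, 149 and 147 CPM in the shHNRNPC libraries (log2 fold change -0.078, SE 0.032, edgeR adjusted p = 0.031). The call was lost without NC_3 (edgeR adjusted p = 0.115), NC_3_2 (0.0551), SI_3 (0.0793) or SI_3_3 (0.0772), and the adjusted p was 0.103 in the authors' deposited table.

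The PSMG chaperones work as pairs that build the alpha ring, PSMG1 with PSMG2 and PSMG3 with PSMG4. All 4 genes were called, 3 higher and PSMG2 lower, and the members of the first pair were called in opposite directions. Of all genes tested, 61.1% were called (29.8% higher, 31.3% lower). After the correction for GC content and length, PSMG4 was higher and PSMG2 lower, and PSMG1 (0.079 on the log2 scale, edgeR adjusted p = 0.0661) and PSMG3 were not called. PSMG2 gave 91.6, 99.7 and 94.0 CPM in the shcontrol libraries and 72.6, 72.8 and 69.6 CPM in the shHNRNPC libraries, 1.29-fold lower (log2 fold change -0.37, SE 0.042, edgeR adjusted p = 2.16e-10). Its partner PSMG1 was at 96.5, 97.4 and 104 CPM in shcontrol and 104, 111 and 106 CPM in shHNRNPC, 1.11-fold higher (log2 fold change 0.15, SE 0.038, edgeR adjusted p = 0.00108). In both genes the groups did not overlap, though for PSMG1 the nearest libraries were 103.7 and 104.1 CPM. PSMG4 was at 52.2, 46.8 and 56.1 CPM in shcontrol and 58.9, 65.1 and 62.3 CPM in shHNRNPC, 1.23-fold higher (log2 fold change 0.30, SE 0.053, edgeR adjusted p = 3.97e-06). PSMG3 was at 38.9, 42.7 and 37.9 CPM in shcontrol and 41.9, 45.6 and 43.0 CPM in shHNRNPC, with overlapping groups (log2 fold change 0.17, SE 0.057, edgeR adjusted p = 0.00868). The PSMG3 call was lost without NC_3_3 or SI_3_2, at edgeR adjusted p-values of 0.0716 and 0.0718. The sum of the 4 genes overlapped between the groups, with a ratio of 0.994.

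Levels among the 20S and 19S genes split into a main group and a few genes with almost no reads. Of these 31 genes, 25 had a mean of at least 10 CPM over the 6 libraries, from 20.2 CPM (PSMC6) to 1372 CPM (PSMD2), and the other 6 were at or below 6.46 CPM. To compare genes, levels were taken per kilobase of the longest coding transcript. On this scale PSMA7 was highest at 735 CPM, followed by PSMB4 at 614 and PSMB7 at 573 CPM, while PSMA4 was at 28.3 and PSMD12 at 21.9 CPM. The transcripts taken have 996 bases for PSMA7, 4411 for PSMA4 and 4406 for PSMD12. Which transcripts these cells use was not determined, so the order of genes depends on that choice. PSMB3 had 0, 0 and 0 reads in the libraries of shcontrol and 0, 1 and 0 in those of shHNRNPC, and PSMC4 had 0, 0 and 2 and 0, 0 and 0 in the same order. PSMC1 had 6, 17 and 9 reads in shcontrol and 11, 15 and 8 in shHNRNPC. These subunits are part of every standard 26S proteasome, while their ring partners PSMB4 and PSMC3 had at least 8712 and 6040 reads per library. The alpha subunits PSMA2 and PSMA6 had 11 to 30 reads per library, and PSMA1 had 90 to 128. PSMB11, whose protein replaces PSMB5 in the thymus, had 2 reads in 1 library and 0 in the others. PSMB3, PSMB11 and PSMC4 could not be tested at such counts, and PSMA2, PSMA6 and PSMC1 had standard errors of 0.30 to 0.44 on the log2 scale. PSMA1 was tested with an SE of 0.13 and was not called (log2 fold change 0.038, edgeR adjusted p = 0.817).

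**Figure D4:**
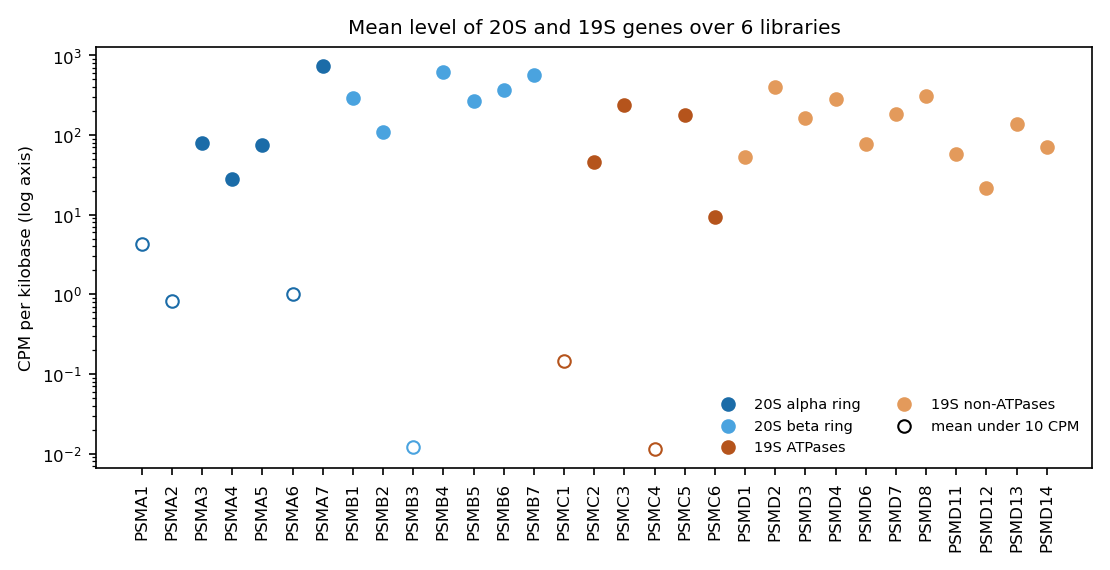
Mean level of each 20S and 19S gene over 6 libraries, in CPM per kilobase of its longest coding transcript on a log axis; open circles are genes with a mean under 10 CPM. Most genes lie between about 9 and 735 CPM per kilobase, and PSMA1, PSMA2, PSMA6, PSMB3, PSMC1 and PSMC4 lie below 5.

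Overlapping annotation was present for 4 of these 6 genes. In GENCODE 29 another gene on the same strand covers 52.5% of the exons of the longest coding transcript of PSMA1, 52.5% of PSMA2 and 81.0% of PSMA6. For PSMC1, exons of NRDE2 on the opposite strand cover 82.1%, and 13 pseudogenes carry its name. No exon of the longest coding transcript of PSMB3 or PSMC4 is overlapped by another gene. PSMD7, with at least 4798 reads per library, is covered over 50.4% by a gene on the opposite strand. For PSMD9, genes on the same strand together cover 43.8%, and the largest single overlap, by AC069503.2, is 28.2%. The part of overlap in the low counts was not tested, and no source used here says whether counting used strand. The 6 genes under 10 CPM were not called or not tested. The calls of the core and 19S genes, 18 higher and 2 lower, therefore all fell among the other 25. Leaving the 6 genes out changes no call and tests nothing about overlap. Of all genes tested, 29.8% were called higher and 31.3% lower.

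Fewer proteasome genes were called once transcript GC content and length were taken into account. The longest coding transcripts of tested core genes had a median of 1029 bases, those of tested 19S genes 2074.5 bases and those of all genes tested 3498 bases. After each library was corrected for GC content and length, 9 proteasome genes were called higher and 5 lower, with a median log2 fold change of 0.012, and 55.3% of all genes were called (29.1% higher, 26.2% lower). In the core 5 were then higher and 1 lower, with a median of 0.038, and in the 19S particle 2 were higher and 2 lower, with a median of 0.0043. The share of higher calls went from 80.8% to 64.3%. Which transcripts these cells use was not determined, so the correction itself rests on the longest annotated one.

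**Figure D5:**
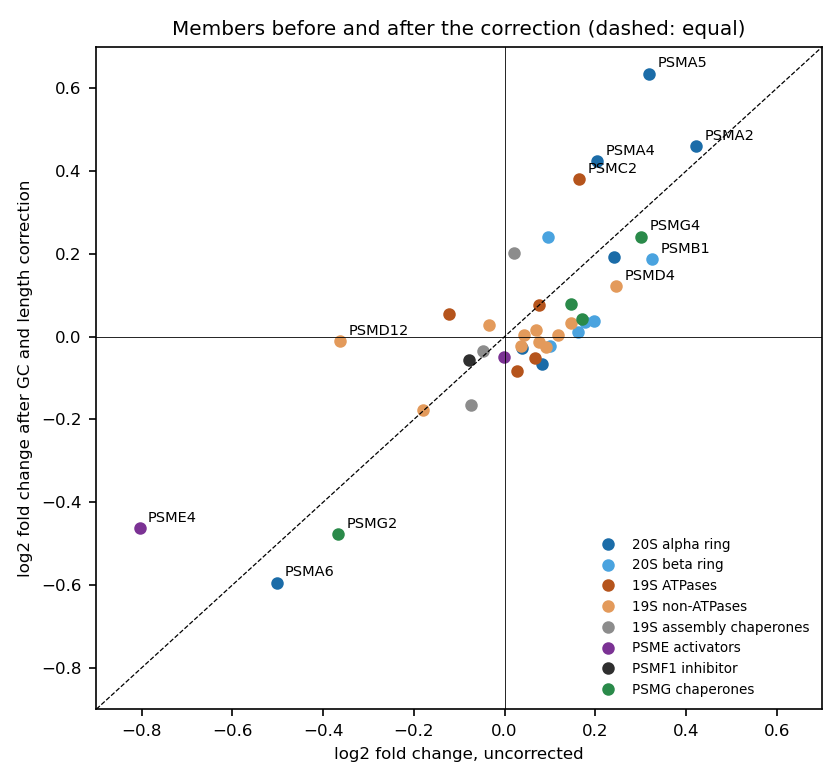
Log2 fold change of each tested proteasome gene before (horizontal axis) and after (vertical axis) the correction for GC content and length, coloured by class, with a dashed line at equal values. PSMA5, PSMA4 and PSMC2 move up, PSMD12 moves from -0.36 to -0.011, and PSME4 and PSMG2 stay negative.

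Genes called higher in both fits were PSMA3, PSMA4, PSMA5, PSMB1, PSMB2, PSMC2, PSMD4 and PSMG4. PSMA5, whose transcript of 3729 bases has 37.2% GC, moved to 0.64 on the log2 scale (edgeR adjusted p = 8.92e-31). PSMB1 moved to 0.19 (edgeR adjusted p = 3.26e-09). The 3 catalytic genes were no longer called, with log2 fold changes of -0.024 for PSMB5, 0.038 for PSMB6 and 0.036 for PSMB7. PSMA7 changed sides, to -0.066 (edgeR adjusted p = 0.00538). Of the genes called lower, PSMD11, PSME4 and PSMG2 were called lower again, PSME4 at -0.46 (edgeR adjusted p = 8.58e-14) and PSMG2 at -0.48 (edgeR adjusted p = 6.24e-16). PSMD12, with 4406 bases at 37.9% GC, moved to -0.011 and lost its call, as did PSMF1. PSMC5 (lower) and PSMD5 (higher) gained one.

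Genes that act with the proteasome moved in both directions. Of 31 genes in 3 lists drawn from textbook membership, all tested, 12 were called higher and 12 lower. That is 77.4% called, against 61.1% of all genes tested, which also went both ways (29.8% higher, 31.3% lower). In the list around NFE2L1, 1 of 6 genes was higher and 4 lower. NFE2L1 gave 429, 441 and 435 CPM in the shcontrol libraries and 625, 625 and 616 CPM in the shHNRNPC libraries, with no overlap, and rose 1.47-fold (log2 fold change 0.56, SE 0.022, edgeR adjusted p = 5.85e-26). Among genes of enzymes that process NFE2L1, NGLY1, a deglycosylating enzyme, was 1.57-fold lower (edgeR adjusted p = 1.24e-10), and DDI2, a protease, was 1.50-fold lower (edgeR adjusted p = 4.33e-10). VCP, the segregase that extracts NFE2L1 from the endoplasmic reticulum membrane and stands in the ubiquitin list, was 1.06-fold higher (edgeR adjusted p = 5.74e-04) and was not called after the correction. NFE2L2, the related factor of the oxidative stress response, was 1.39-fold lower (edgeR adjusted p = 5.66e-14). With GC content and length corrected, NFE2L1, NGLY1 and NFE2L2 kept their calls, and DDI2 was at -0.10 on the log2 scale and not called. The list then had 2 higher and 2 lower.

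Among other subunits and partners, 3 of 11 genes were higher and 5 lower, and after the correction 6 were higher and 4 lower. ECPAS, an adaptor that holds proteasomes together, was 1.39-fold lower (edgeR adjusted p = 7.60e-16), and UBE3C, a ubiquitin ligase bound to proteasomes, was 1.22-fold lower (edgeR adjusted p = 2.18e-11). PAAF1, which binds 19S ATPases, was 1.26-fold higher (edgeR adjusted p = 7.42e-07). USP14, a deubiquitinase of the 19S particle, was 1.19-fold lower (edgeR adjusted p = 3.28e-10) and turned to 0.13 on the log2 scale after the correction. Of 14 genes for ubiquitin, its activating enzymes and shuttling factors, 8 were higher and 3 lower, against 5 and 3 after the correction and 5 and 4 by library size alone. UBA6, an activating enzyme, was 1.59-fold lower (edgeR adjusted p = 8.86e-12) but was at -0.13 on the log2 scale after the correction, not called. NPLOC4, a cofactor of the segregase VCP, was 1.15-fold lower (edgeR adjusted p = 4.79e-09).

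PSMB10, the interferon-induced counterpart of PSMB7, gave 25.3, 25.9 and 22.2 CPM in shcontrol and 40.0, 41.0 and 41.3 CPM in shHNRNPC. Its 1.72-fold rise (log2 fold change 0.78, SE 0.064, edgeR adjusted p = 1.79e-14) was larger than that of any constitutive gene called higher, though another gene on the same strand covers 45.3% of its longest coding transcript. PSMB8 and PSMB9 were not analysed here.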

How the data were processed

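RNA was isolated with Trizol and libraries were made with the NEBNext Ultra kit, per the labels' protocols. STAR, HTSeq 0.6.0 and DESeq2 appear in the submitters' processing notes, without roles. Build, annotation and strand setting were not given in the sources used here. Raw counts were deposited, whole numbers of reads for each gene, along with the authors' log2 fold changes and adjusted p-values. Column names (NC, SI) gave the group of each library and not its replicate number. Another 24 columns of per-library values were not used, so levels per length are CPM per kilobase of the longest coding transcript in GENCODE 29.

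Counts were filtered with filterByExpr, scaled by TMM and tested by glmQLFit and glmQLFTest (edgeR 4.0.16 under R 4.3.3), with Benjamini-Hochberg adjustment over the 11831 genes tested and a threshold of 0.05. Standard errors were derived from each fold change and its test statistic. Alternatives were DESeq2 1.42.0, other scalings and filters, glmTreat, a loess correction (span 0.4) for GC content and length, and leaving out each library. Scripts were tested on simulated counts. Chi-square per gene (1 for counting noise alone) was 1.56 to 2.50 within groups and 29.5 to 33.6 between them, so no library repeated another. Values in every library are given for the 10 largest called changes, the catalytic subunits and the PSME, PSMF1 and PSMG genes, and fold changes for up to 4 genes of each pathway list with the smallest adjusted p; some genes this rule takes are not reported here. Other genes, such as PSMD1 and PSMA7, were picked after seeing their values. The members and lists were chosen with earlier results of these data known.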

Additional observations from a re-analysis of the deposited data

How the results depend on the processing

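Low counts limited PSMA2, PSMA6 and PSMC1, and left PSMB3, PSMB11 and PSMC4 untested; the cause of these low counts was not tested. No paired analysis was possible because the columns carry no replicate numbers of the sample titles. With RLE or upper quartile scaling, either other filter or DESeq2, the counts of called genes over all genes, all proteasome genes, the 20S core, the 19S particle and the pathway lists together stayed within 1.5 times. By library size alone they did too, apart from the 19S particle, with 5 higher against 8. Smaller groups moved more: PSMF1 lost its call with upper quartile scaling and DESeq2, and by library size alone the ATPases had 1 higher against 2 and the 19S chaperones 1 lower against 0. Against a 1.2-fold change (glmTreat), 2959 of all genes were called in place of 7228. The proteasome genes then had 2 higher (PSMA5 and PSMB1, both core genes) and 3 lower, the 19S particle had 0 higher (edgeR, 0 also at an unadjusted p under 0.05) and 1 lower, and the pathway lists had 1 higher and 5 lower. The cause of these fewer calls is the stricter null hypothesis.

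After the GC and length correction 9 proteasome genes were higher in place of 21, 5 core genes higher and 1 lower in place of 10 and 0, and 2 of the 19S genes higher in place of 8. Among genes called in at least 1 of the 2 fits, the log2 fold change reversed for PSMA7 (-0.066), PSMB5 (-0.024), PSMC3 (-0.051), PSMC5 (-0.083), PSMD2 (-0.012), PSMD8 (-0.025), ADRM1 (-0.14), USP14 (0.13), UCHL5 (0.26), SEL1L (0.12), UBB (-0.051) and UBQLN2 (0.11). The cause was not tested.

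Without each library in turn, 6733 to 6983 genes were called, 19 to 21 proteasome genes were higher and 4 to 5 lower, 10 core genes were higher and 0 lower, 6 to 8 of the 19S genes were higher and 2 to 3 lower, and 11 to 13 pathway genes were higher and 10 to 12 lower. The call of 5 members changed in at least 1 of these fits (PSMC3, PSMC6, PSMD7, PSMF1 and PSMG3). With TMM scaling the log2 ratio of the summed CPM was 0.16 in place of 0.12 for the core, 0.068 in place of 0.028 for the 19S particle and -0.11 in place of -0.15 for the PSME genes. Without the most abundant gene it was 0.14 for the core (without PSMA7) and -0.85 for PSME (without PSME3).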
